A study of Mus musculus with 8 samples.

Results

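Estradiol and oil were compared in stromal cells of the uterus of control mice, with 2 libraries for each treatment, so the comparison rests on 4 of the 8 libraries of the series. They were chosen by their titles alone. The mice were ovariectomized, of a strain given as C57BL/6-ICR, and carried floxed, undeleted Atg7 (Atg7f/f). They had received either oil, the vehicle, or E2, which is estradiol. The other 4 libraries came from Atg7d/d mice, in which Amhr2-Cre deleted the gene, given oil or E2. They serve here to set a control value beside its counterpart. They also enter the estimate of spread that all groups share, and so each p-value of the control comparison. The age of the mice, the dose, the time after injection and the way stroma was separated from the rest of the uterus are not given in the labels, and nothing there says that libraries came from separate animals. P-values therefore measure the spread between these libraries, which may be technical. RNA was read from the 3′ ends of transcripts (QuantSeq), so a gene's count does not grow with its length. Levels are in CPM, read counts per unit of library size after scaling by the trimmed mean of M-values, fold changes are estradiol over oil on the log2 scale with their standard error, and a gene rose or fell where edgeR's quasi-likelihood test gave an adjusted p under 0.05.

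Estradiol enters cells and binds the estrogen receptors, transcription factors that act at estrogen response elements or through other factors on DNA. In the rodent uterus a single exposure is known to bring water uptake and a burst of early genes, and later growth of the tissue. Stromal cells carry the receptor and send growth factors to the epithelium above them, so the stroma is both a target of the hormone and a relay. Stromal fibroblasts also make the collagens and proteoglycans of the uterine wall.

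The 4 libraries held 5591905 to 6951080 counts, and 13347 of 23238 gene symbols had enough reads to be tested. The 2 oil libraries resembled each other less (r = 0.949 across genes, which are not independent replicates) than the 2 estradiol libraries (r = 0.975). Uterine stroma markers were present in all 4 libraries, and summed to 3205 and 4077 CPM in oil and 7795 and 6147 CPM after estradiol. Luminal epithelium markers summed to 18530 and 6256 CPM in oil and 1924 and 4557 CPM after estradiol, so they stood above the stroma list in both oil libraries and below it in both estradiol libraries. Oil library 1 held the most. The stroma list includes Col1a1, at 39.6 and 48.7 CPM in oil and 1888 and 1196 CPM after estradiol. It also includes Col3a1, at 25.9 and 62.5 CPM in oil and 1216 and 812 CPM after estradiol. These collagens are part of the higher stroma sum after estradiol, and so of the order of the lists there. Of the 20 stroma markers, 10 rose and 2 fell. Cldn4, a tight junction protein of epithelium, stood at 6414 and 2324 CPM in oil and 305 and 749 CPM after estradiol. The keratin gene Krt18 stood at 3248 and 1013 CPM in oil and 133 and 264 CPM after estradiol. The libraries of the 2 treatments did not overlap for either gene, and estradiol library 2 held more of both than estradiol library 1. The fall of Cldn4 ended without estradiol library 1 (adjusted p = 0.0663) and that of Krt18 without estradiol library 1 (adjusted p = 0.0580). A list of 23 genes known to respond when tissue is dissociated, which also contains early response and heat shock genes, summed to 60640 and 47870 CPM in oil and 26860 and 24900 CPM after estradiol. Of the dissociation list, 15 members fell and none rose (median -1.03). Fewer fell without estradiol library 1 or 2, where the median was -1.06 and -1.07. In bulk RNA, fewer cells of a type and less RNA per cell cannot be told apart, and this holds for every result below.

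Of the 13347 tested genes, 2107 rose (15.8%) and 1871 fell (14.0%), in all 29.8%, and the median log2 fold change of all tested genes was 0.01. Levels did not overlap between treatments, whatever the test, in 4516 genes that were higher after estradiol (33.8%) and in 4231 that were lower (31.7%). These shares are the background for each list below. The number that rose was 986 without estradiol library 1, 1132 without estradiol library 2, 1866 without oil library 1 and 2125 without oil library 2. The number that fell was 519, 796, 1466 and 2043 in the same order. Each paragraph below gives the list counts that moved by over 1.5 times and by more than 1 gene when a control library was left out. For luminal epithelium markers the medians of these fits are given in place of counts. Genes described with values below passed in each of these 4 fits unless a sentence says otherwise.

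**Figure D1:**
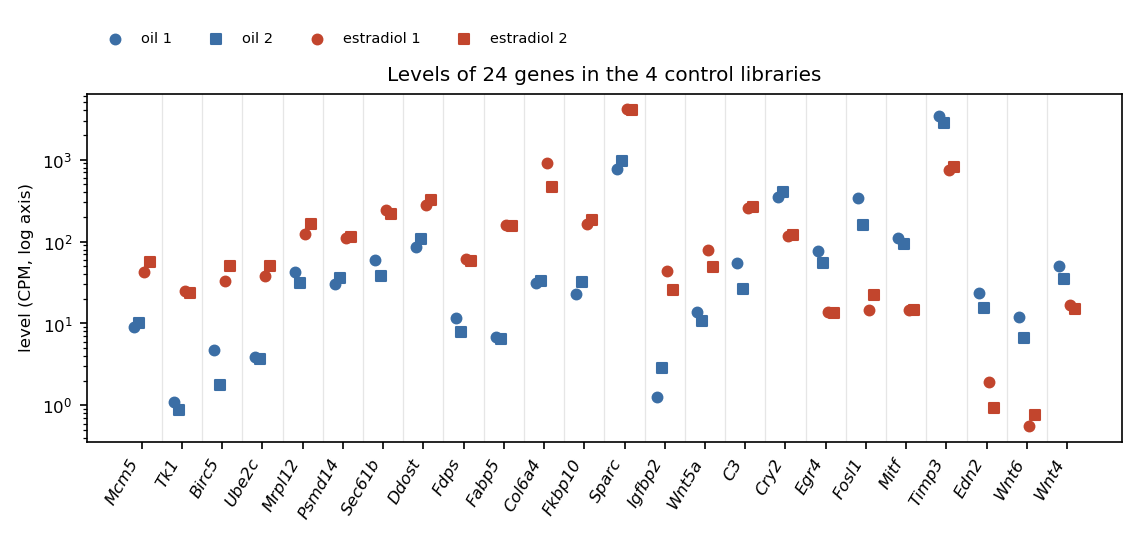
Level in CPM (log axis) of 24 genes in each control library; blue marks are oil and red marks estradiol, with a circle for library 1 and a square for library 2. In none of these genes do the red and blue marks overlap: the first 16 genes, from Mcm5 to C3, are higher after estradiol, and the last 8, from Cry2 to Wnt4, are lower.

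Many genes that copy DNA rose, though not all. Before S phase, the origin recognition complex and its partners load the MCM helicase on DNA, and the fork proteins then copy it. Of 24 origin licensing and helicase genes, 13 rose and none fell (median 1.04). Of 26 replication fork genes, 18 rose and none fell (median 1.21), and of 26 nucleotide synthesis genes, 12 rose and none fell (median 0.63). Mcm5 (chromosome 8, 75109569 to 75128439, plus strand), a subunit of the helicase, stood at 8.99 and 10.3 CPM in oil and 42.7 and 57.0 CPM after estradiol, a log2 fold change of 2.37 ± 0.27 (adjusted p = 0.000898). The loader Cdc6 stood at 3.16 and 1.24 CPM in oil and 11.9 and 12 CPM after estradiol, a log2 fold change of 2.41 ± 0.41. Gmnn, which encodes geminin, the inhibitor that prevents a second loading, stood at 3.31 and 3.19 CPM in oil and 18.7 and 19.8 CPM after estradiol, a log2 fold change of 2.56 ± 0.29. In these 3 genes both estradiol libraries lay above both oil libraries by more than 2-fold. All 6 subunits of the helicase, Mcm2 to Mcm7, rose, by 0.80 ± 0.24 for Mcm7 to 2.41 ± 0.33 for Mcm2. The calls of Mcm4 and Mcm7 were lost when a library was left out, Mcm4 without estradiol library 2 (adjusted p = 0.0678) and Mcm7 without estradiol library 1 (adjusted p = 0.114), without estradiol library 2 (adjusted p = 0.128), without oil library 1 (adjusted p = 0.107) and without a deleted estradiol library (0.0536 without the first and 0.0541 without the second). None of the 6 genes of the origin recognition complex passed. Among genes of nucleotide supply, Tk1, the thymidine kinase of dividing cells, stood at 1.1 and 0.885 CPM in oil and 25.1 and 23.5 CPM after estradiol, a log2 fold change of 4.58 ± 0.40. Rrm2, the regulated subunit of ribonucleotide reductase, rose by 3.39 ± 0.55, whereas its partner Rrm1 did not pass (0.57 ± 0.21, adjusted p = 0.0739). Of 19 homologous recombination and crosslink repair genes, 10 rose and none fell (median 1.63). Of 23 chromatin maintenance genes, 11 rose and none fell (median 0.74), with Uhrf1, which guides DNA methylation to copied DNA, at 3.32 ± 0.34 and the methyltransferase Dnmt1 at 1.74 ± 0.19. Without estradiol library 1 and, in turn, without estradiol library 2, 9 and 8 licensing, 11 and 10 fork and 6 and 5 recombination genes rose. With oil library 1 left out, 11 fork genes rose.

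Mitotic genes moved further. Of 24 kinetochore and checkpoint genes, which attach chromosomes to the spindle and hold back the cell until all are attached, 19 rose and none fell (median 2.15). Of 25 mitotic kinase, spindle and cytokinesis genes, 22 rose and none fell (median 2.76). Birc5, which encodes survivin of the chromosomal passenger complex, stood at 4.73 and 1.77 CPM in oil and 33.1 and 50.6 CPM after estradiol, a log2 fold change of 3.66 ± 0.44. Ube2c (chromosome 2, 164769898 to 164778822, plus strand), the enzyme that marks mitotic cyclins for destruction, stood at 3.94 and 3.72 CPM in oil and 37.6 and 50.3 CPM after estradiol, a log2 fold change of 3.51 ± 0.30 (adjusted p = 0.000350). Ccnb1, the cyclin partner of Cdk1, stood at 1.26 and 1.06 CPM in oil and 10.6 and 15.8 CPM after estradiol, a log2 fold change of 3.48 ± 0.55. All 3 were under 5 CPM in oil and separate from it after estradiol. Other members that rose were the kinase Aurkb (4.09 ± 0.51), the kinesins Kif15 (3.30 ± 0.34) and Kif20a (3.31 ± 0.40), and Racgap1 of the cleavage furrow (3.0 ± 0.31). The checkpoint gene Mad2l1 did not pass (-0.92 ± 0.36, adjusted p = 0.0856). With estradiol library 1, then estradiol library 2, left out, 12 and 12 kinetochore genes rose.

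The promoters of these genes were searched for short sequence elements, which the comparison did not use. RefSeq promoters (build GRCm38.p6, the mm10 sequence) were searched on both strands over the 250 bases before the start site, with the first window listed for a gene, and were found for 10082 tested genes. E2F factors bind letters such as TTTGGCGC and TTTCCCGC, which were in 6 of 19 (31.6%) origin licensing and helicase genes and in 2.53% of promoters of all tested genes. Among replication fork genes only 1 of 22 (4.55%) held them. Mitotic promoters are known for CCAAT boxes, bound by NF-Y, and for the cell cycle homology region, searched as TTTGAA or, in its other form, TTCGAA. The CCAAT box was in 16 of 22 (72.7%) of the mitotic kinase, spindle and cytokinesis genes, in 12 of 18 (66.7%) of the kinetochore and checkpoint genes and in 36.2% of all tested genes. It was also in 11 of 19 (57.9%) licensing, 12 of 22 (54.5%) fork and 11 of 16 (68.8%) circadian clock genes. The cell cycle homology region was in 9 of 22 (40.9%) mitotic and 4 of 18 (22.2%) kinetochore genes, and in 12% of all. It was in 4 of 19 (21.1%) licensing and 3 of 22 (13.6%) fork genes. Over all genes that rose the shares were close to the background: 2.95% for E2F, 39.3% for CCAAT and 14.7% for the cell cycle homology region. The full palindromic estrogen response element, which is GGTCA and its reverse complement with 3 bases between them, was in no promoter window of the 10082 tested genes and in 17 of 27025 windows of all RefSeq genes, which says only that these letters are not in these windows. A match is a description of the letters, not of binding. Shown here are the 2 licensing genes with the smallest adjusted p whose window holds an E2F match, and the 2 mitotic genes with the smallest adjusted p that hold both mitotic elements. Capitals mark the matches.
Mcm5, chr8:75109259-75109508, plus strand: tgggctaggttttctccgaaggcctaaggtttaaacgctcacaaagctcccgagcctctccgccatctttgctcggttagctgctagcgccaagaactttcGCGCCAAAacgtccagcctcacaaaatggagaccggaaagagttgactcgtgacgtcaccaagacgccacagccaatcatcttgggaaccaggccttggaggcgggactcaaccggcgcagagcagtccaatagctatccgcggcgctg
Cdc6, chr11:98907901-98908150, plus strand: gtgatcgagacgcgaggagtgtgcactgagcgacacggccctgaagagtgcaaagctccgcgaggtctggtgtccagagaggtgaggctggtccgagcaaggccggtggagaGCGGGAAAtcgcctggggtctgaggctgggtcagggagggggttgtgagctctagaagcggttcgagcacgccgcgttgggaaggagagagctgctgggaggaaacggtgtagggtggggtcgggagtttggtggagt
Cdk1, chr10:69352913-69353162, minus strand: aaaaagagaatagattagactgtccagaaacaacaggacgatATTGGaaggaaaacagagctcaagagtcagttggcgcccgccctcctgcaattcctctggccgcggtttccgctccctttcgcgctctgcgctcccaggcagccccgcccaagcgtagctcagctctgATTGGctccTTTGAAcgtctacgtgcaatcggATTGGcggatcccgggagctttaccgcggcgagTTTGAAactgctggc
Ube2c, chr2:164769679-164769928, plus strand: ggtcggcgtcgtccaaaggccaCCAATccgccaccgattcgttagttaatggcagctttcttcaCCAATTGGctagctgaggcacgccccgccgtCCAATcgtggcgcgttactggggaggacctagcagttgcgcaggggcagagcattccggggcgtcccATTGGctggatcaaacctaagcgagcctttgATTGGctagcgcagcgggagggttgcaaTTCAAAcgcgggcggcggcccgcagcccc
Mcm5 and Cdc6 hold 1 E2F match each. Cdk1 holds 3 CCAAT matches and 2 of the cell cycle homology region, and Ube2c 6 CCAAT matches, of which a pair overlaps, and 1 of the cell cycle homology region.

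Upstream of S phase the picture was mixed. Of 17 G1 cyclin and CDK inhibitor genes, 3 rose and 3 fell (median -0.11), close to the 15.8% and 14.0% of all tested genes. The inhibitor Cdkn1c, which encodes p57, stood at 73.5 and 86.0 CPM in oil and 27.9 and 22.7 CPM after estradiol, a log2 fold change of -1.65 ± 0.20. Cdkn1a, which encodes p21, stood at 350.2 and 376 CPM in oil and 160.5 and 151 CPM after estradiol, a log2 fold change of -1.22 ± 0.16. Both inhibitors were lower in each estradiol library than in each oil library. Cdk4 rose by 1.0 ± 0.19 and Ccne1, the cyclin of the S phase kinase, by 1.97 ± 0.38, whereas Ccnd1 did not pass (-0.11 ± 0.29, adjusted p = 0.80). Ccnd2 fell by 1.32 ± 0.30, a call that ended without estradiol library 1 (adjusted p = 0.0823). Of 21 E2F and cell cycle transcription genes, 8 rose and 3 fell (median 0.44): the activators E2f1 (3.21 ± 0.23), Mybl2 (2.21 ± 0.38) and Foxm1 (2.07 ± 0.37) rose, and the high mobility group gene Hmga1 (-1.72 ± 0.18), whose reads may be shared with a near-identical copy, fell. Targets of p53 divided, with 6 up and 6 down of 19 (median 0.12). Bax, a trigger of cell death at mitochondria, stood at 28.1 and 32.2 CPM in oil and 95.4 and 91.3 CPM after estradiol (1.63 ± 0.18), and Gdf15, a secreted stress hormone, stood at 7316 and 2554 CPM in oil and 134 and 313 CPM after estradiol (-4.47 ± 0.60). Oil library 1 had the highest Gdf15 and the highest sum of luminal epithelium markers, and the part of epithelial RNA in the fall of Gdf15 was not tested. Among 23 apoptosis regulators, Bak1 rose (1.99 ± 0.36) and 6 fell, of which Hrk (-2.67 ± 0.47) moved furthest (median -0.14). In the fits without estradiol library 1 and without estradiol library 2, 4 and 5 E2F and cell cycle transcription genes rose, and 2 and 2 p53 target and 2 and 2 apoptosis genes fell. Without oil library 1, 3 apoptosis genes rose, and 3 p53 target genes fell.

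Genes of the mitochondrial ribosome, the proteasome, protein entry into the secretory path and N-glycosylation rose more often than all tested genes. Those of the cytosolic ribosome did not. Of 77 mitochondrial ribosomal protein genes, 55 rose and none fell (median 0.99). Of 74 cytosolic ribosomal protein genes, 4 rose and 1 fell, with a median of 0.03 that was below 0 when counts were scaled by relative log expression or by upper quartiles. Mrpl12, which binds the mitochondrial RNA polymerase, stood at 42.8 and 30.8 CPM in oil and 124 and 164 CPM after estradiol, a log2 fold change of 1.96 ± 0.22. Mrpl18 rose by 2.01 ± 0.23. The proteasome, which degrades marked proteins, had 22 of 31 members up and none down (median 0.84). Psmd14, the deubiquitinase of its lid, stood at 30.6 and 36.3 CPM in oil and 109.7 and 113 CPM after estradiol, a log2 fold change of 1.74 ± 0.18. Proteins bound for secretion enter the endoplasmic reticulum (ER) through the SEC61 channel. Of 22 ER entry and signal peptide genes, 14 rose and none fell (median 0.75), and of 24 N-glycosylation genes, 16 rose and none fell (median 1.02). Sec61b, the beta subunit of the channel, stood at 59.3 and 37.9 CPM in oil and 241 and 215 CPM after estradiol, a log2 fold change of 2.23 ± 0.25. Ddost, of the complex that attaches sugar chains, stood at 85.8 and 107 CPM in oil and 277 and 323 CPM after estradiol, a log2 fold change of 1.64 ± 0.20. The estradiol libraries lay above the oil libraries in each of these genes. Alg3, a mannosyltransferase of the sugar precursor, rose by 2.43 ± 0.34. Of 21 TCA cycle genes, 13 rose and none fell (median 0.82), with citrate synthase (Cs) at 1.51 ± 0.17 and Idh1, the cytosolic isocitrate dehydrogenase, at 2.24 ± 0.27. Of 25 mitochondrial dynamics, import and cristae genes, 11 rose and 2 fell (median 0.52): the import chaperone Timm13 rose by 1.97 ± 0.19 and the prohibitin Phb by 1.58 ± 0.25. Ppargc1a, a coactivator of mitochondrial genes, fell by 1.91 ± 0.46, a call that ended without estradiol library 1 (adjusted p = 0.105), without estradiol library 2 (adjusted p = 0.0633) and without oil library 1 (adjusted p = 0.0737). Of 22 aminoacyl-tRNA synthetase genes, 9 rose and 1 fell (median 0.56), but only Kars (1.05 ± 0.20) passed in each of the 4 fits. After leaving out estradiol library 1 and then estradiol library 2, 34 and 29 mitochondrial ribosomal, 1 and 2 cytosolic ribosomal, 15 and 11 proteasome, 6 and 9 ER entry, 8 and 9 N-glycosylation, 8 and 6 TCA cycle, 7 and 6 mitochondrial dynamics and 3 and 1 tRNA synthetase genes rose, and 0 and 0 mitochondrial dynamics genes fell. With oil library 1 left out, 0 mitochondrial dynamics genes fell. With oil library 2 left out, 2 cytosolic ribosomal and 4 tRNA synthetase genes rose.

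**Figure D2:**
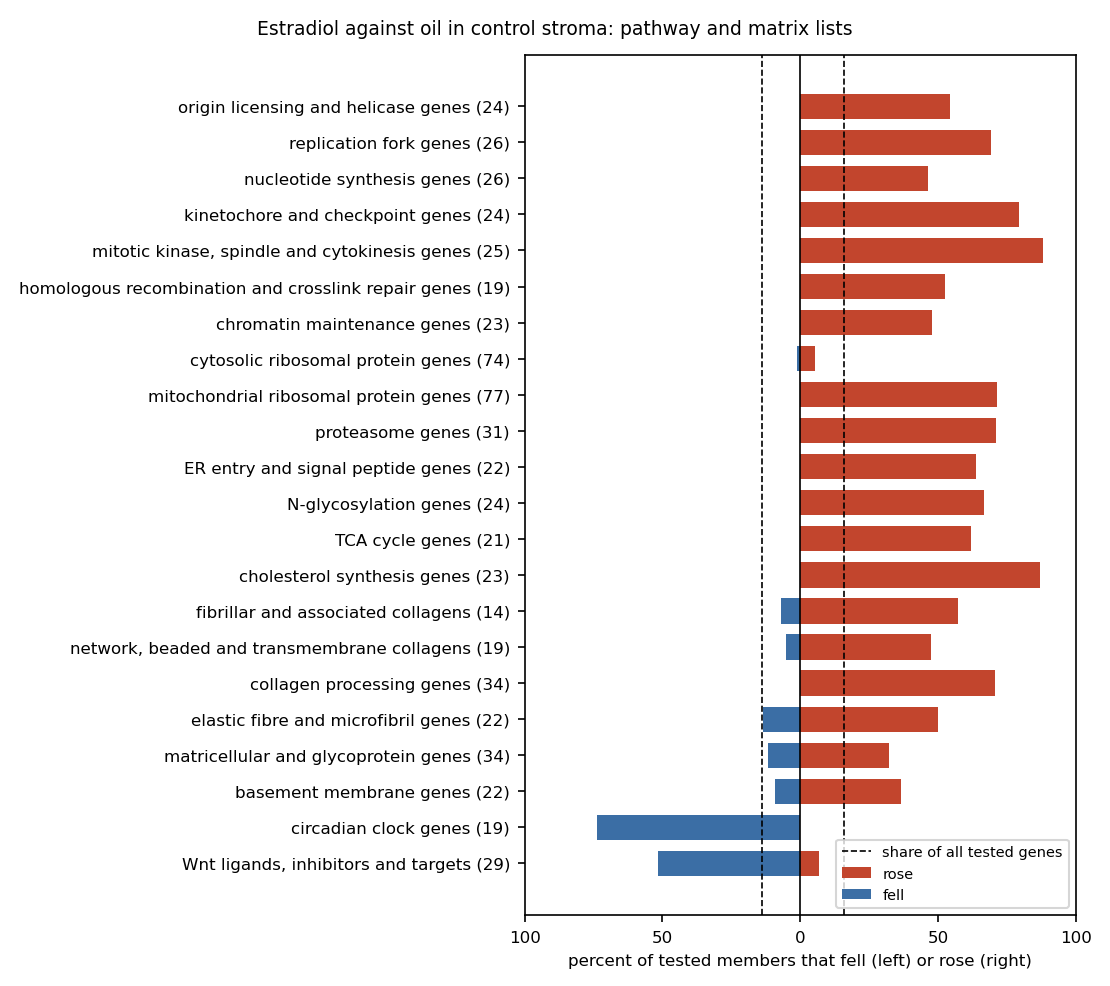
Percent of the tested members of each list that fell (blue, left) or rose (red, right), with the number of tested members in parentheses and dashed lines at the shares of all tested genes, 14.0% and 15.8%. Cell cycle, organelle, sterol and collagen lists reach far to the right of the line, cytosolic ribosomal proteins stay inside both lines, and circadian and Wnt lists reach to the left.

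Cells make cholesterol from acetate when the transcription factor SREBP2 is released. In cholesterol synthesis 20 of 23 genes rose, and none was called lower (median 1.23). Fdps, which makes farnesyl units, stood at 11.7 and 7.97 CPM in oil and 61.6 and 57.5 CPM after estradiol, a log2 fold change of 2.59 ± 0.30. Nsdhl, a late demethylation enzyme, stood at 2.84 and 5.31 CPM in oil and 22.8 and 24.9 CPM after estradiol, a log2 fold change of 2.55 ± 0.31. The gene for SREBP2, Srebf2, rose too (1.14 ± 0.18). Promoter windows of this list held CCAAT in 15 of 17 (88.2%), a share above that of the mitotic list, while the sterol element searched as ATCAC, any base and CCAC was in none of the 17 and in 0.139% of all tested genes. The 2 members with the smallest adjusted p that hold CCAAT are shown, with CCAAT or its reverse complement in capitals.
Nsdhl, chrX:72918271-72918520, plus strand: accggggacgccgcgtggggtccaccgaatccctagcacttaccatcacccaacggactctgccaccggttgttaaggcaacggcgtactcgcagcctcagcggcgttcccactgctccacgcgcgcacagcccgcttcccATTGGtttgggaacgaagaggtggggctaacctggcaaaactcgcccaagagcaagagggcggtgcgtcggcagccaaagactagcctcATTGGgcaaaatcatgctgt
Mvk, chr5:114444019-114444268, plus strand: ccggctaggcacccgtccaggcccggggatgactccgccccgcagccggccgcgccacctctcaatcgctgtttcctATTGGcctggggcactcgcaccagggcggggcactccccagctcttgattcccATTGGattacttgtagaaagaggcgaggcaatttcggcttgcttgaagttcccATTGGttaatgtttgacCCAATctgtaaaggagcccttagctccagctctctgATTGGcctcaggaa
Nsdhl holds 2 matches and Mvk, the mevalonate kinase, 5. Fatty acid synthesis was less uniform: 6 of 21 rose and 2 fell (median 0.55). Fasn, the synthase, rose by 1.08 ± 0.18 and Elovl6, an elongase, by 1.67 ± 0.29. Mlxipl, the sugar-sensing factor ChREBP, fell by 4.02 ± 0.65. Among 22 lipoprotein uptake and lipid storage genes, 4 rose and 8 fell, with a median of 0.03 that was below 0 when counts were scaled by upper quartiles. Fabp5, a fatty acid carrier, stood at 6.78 and 6.55 CPM in oil and 158 and 155 CPM after estradiol, a log2 fold change of 4.55 ± 0.26 (adjusted p = 0.000157). Apoe, which carries lipid out of cells, stood at 219 and 261 CPM in oil and 80.6 and 53.3 CPM after estradiol, a log2 fold change of -1.84 ± 0.23. Neither gene's libraries overlapped between treatments. Without estradiol library 1 and, in turn, without estradiol library 2, 13 and 14 cholesterol genes rose, and 2 and 2 lipoprotein and lipid storage genes fell. Leaving out oil library 1, 5 lipoprotein and lipid storage genes fell.

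Collagen genes showed some of the steepest rises. Fibrillar collagens form the cables of the stroma, and their chains are hydroxylated, folded and clipped before assembly. Of 14 fibrillar and associated collagens, 8 rose and 1 fell (median 1.91), and of 19 network, beaded and transmembrane collagens, 9 rose and 1 fell (median 1.54). Col1a2, the second chain of type I collagen, stood at 55.1 and 122 CPM in oil and 2745 and 1685 CPM after estradiol, a log2 fold change of 4.65 ± 0.50. Col6a4 (chromosome 9, 105989454 to 106096783, minus strand), a chain of beaded type VI collagen, stood at 31.6 and 32.8 CPM in oil and 904 and 465 CPM after estradiol, a log2 fold change of 4.41 ± 0.35. Col5a3, a chain of type V collagen, stood at 22.9 and 26.6 CPM in oil and 126 and 118 CPM after estradiol, a log2 fold change of 2.30 ± 0.17. Estradiol library 1 was the higher of the 2 in each, and no library overlapped. Type IV chains of the basement membrane rose less, with Col4a1 at 1.59 ± 0.28 and Col4a2 at 1.82 ± 0.21. Of 6 genes for type VI collagen chains, 4 rose, with Col6a1 at 3.27 ± 0.42, Col6a2 at 4.23 ± 0.28 and Col6a3 at 3.27 ± 0.27 beside Col6a4, and Col6a5 (2.39 ± 0.84) and Col6a6 (0.83 ± 0.52) did not pass (adjusted p = 0.0586 and 0.254). The enzymes and chaperones moved with the chains: of 34 collagen processing genes, 24 rose and none fell (median 1.23). Serpinh1, the collagen chaperone HSP47, stood at 529.6 and 507 CPM in oil and 3478 and 3201 CPM after estradiol, a log2 fold change of 2.69 ± 0.22. Fkbp10, a prolyl isomerase, stood at 23 and 32.4 CPM in oil and 164 and 183 CPM after estradiol, a log2 fold change of 2.65 ± 0.21. Creb3l1, a membrane-bound transcription factor known to drive collagen genes, stood at 16.7 and 8.67 CPM in oil and 124 and 73.0 CPM after estradiol, a log2 fold change of 2.94 ± 0.36. In all 3, each estradiol library stood above each oil library. Promoter windows held CCAAT in 4 of 9 (44.4%) of the fibrillar list, 6 of 18 (33.3%) of the network list and 6 of 22 (27.3%) of the processing list, beside 36.2% of all tested genes, and none is shown. The crosslinking oxidase Loxl1 (2.40 ± 0.26), the hydroxylase P3h1 (1.86 ± 0.22) and the clipping protease Adamts2 (2.49 ± 0.39) rose as well. Smooth muscle markers, which also come from a cell that makes matrix, summed to 8232 and 9541 CPM in oil and 13360 and 15080 CPM after estradiol, and their part in these rises was not tested. 

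Other matrix genes divided by class. Of 22 elastic fibre and microfibril genes, 11 rose and 3 fell (median 0.84): the microfibril genes Fbn2 (3.04 ± 0.40) and Mfap2 (2.60 ± 0.38) and the assembly factor Efemp2 (2.49 ± 0.33) rose, whereas elastin itself (Eln) did not pass (0.67 ± 0.30, adjusted p = 0.121). Of 34 matricellular and glycoprotein genes, 11 rose and 4 fell (median 0.43). Sparc, which helps collagen to assemble, stood at 775 and 974 CPM in oil and 4111 and 4095 CPM after estradiol, a log2 fold change of 2.23 ± 0.22. Its relative Sparcl1 went the other way, at 1293 and 2552 CPM in oil and 475 and 591 CPM after estradiol, a log2 fold change of -1.85 ± 0.31. Counts of 3′ ends do not grow with length, and on that scale the level of Sparcl1 lay above that of Sparc in both oil libraries and below it in both estradiol libraries. Vcan, the hyaluronan-binding proteoglycan versican, rose by 2.81 ± 0.28, and Spon1, a spondin, by 3.84 ± 0.30. Fn1, which encodes fibronectin, rose by 1.27 ± 0.16. Of 10 small leucine-rich proteoglycans, 4 rose and 3 fell (median 0.17). Lum stood at 25.9 and 20 CPM in oil and 119 and 97.4 CPM after estradiol (2.23 ± 0.23) and Bgn at 93.9 and 116 CPM in oil and 235 and 252 CPM after estradiol (1.21 ± 0.19). Dcn, which encodes decorin, stood at 1251 and 1023 CPM in oil and 743 and 707 CPM after estradiol (-0.65 ± 0.18), a call that ended without estradiol library 1 (adjusted p = 0.117), without estradiol library 2 (adjusted p = 0.136), without oil library 1 (adjusted p = 0.105) and without a deleted estradiol library (0.0599 without the first and 0.0601 without the second). Lum, Bgn and Dcn bind fibrillar collagen, and the 3 did not move one way. Of 22 basement membrane genes, 8 rose and 2 fell (median 0.50), with the laminin chain Lamb1 at 0.99 ± 0.18 and Lamb2 at -0.93 ± 0.20, the latter a call that ended without estradiol library 1 (adjusted p = 0.0801). Of 30 proteoglycan sugar chain genes, 9 rose and 2 fell (median 0.70): those that rose in each fit, Chst14, Chst11 and Chsy1, build chondroitin and dermatan sulfate chains. Of 24 integrins, the receptors for matrix, 3 rose and 6 fell (median -0.20), and Itgb3 rose by 1.91 ± 0.30. With estradiol library 1, then estradiol library 2, left out, 5 and 10 elastic fibre, 2 and 3 small proteoglycan, 4 and 5 basement membrane, 3 and 5 sugar chain and 1 and 1 integrin genes rose, and 1 and 1 elastic fibre, 1 and 2 matricellular, 1 and 0 small proteoglycan, 0 and 1 basement membrane, 0 and 0 sugar chain and 0 and 1 integrin genes fell. Without oil library 1, 5 basement membrane and 1 integrin genes rose, and 4 basement membrane genes fell.

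Metalloproteinase genes and those of their TIMP inhibitors were called about as often as all tested genes. Of 31 in this list, 5 rose and 4 fell (median 0.29), near the background of 15.8% and 14.0%. Timp3 (chromosome 10, 86300372 to 86349506, plus strand), an inhibitor of metalloproteinases that stays in the matrix, stood at 3450.2 and 2768 CPM in oil and 747 and 802 CPM after estradiol, a log2 fold change of -2.01 ± 0.24 (adjusted p = 0.00110). The protease genes Mmp2 (0.55 ± 0.22) and Mmp14 (0.52 ± 0.20) did not pass (adjusted p = 0.0870 and 0.0728). Adamts17 had 30 reads in oil and none after estradiol, at least 11.4-fold lower against a floor of 3 reads over the group, though the call ended without estradiol library 1 (adjusted p = 0.103) and without estradiol library 2 (adjusted p = 0.0875). Of 27 serpin and protease inhibitor genes, 9 rose and 1 fell (median 0.44), among them Serpinf1, the antiangiogenic factor PEDF (2.52 ± 0.20). A2m, a broad protease trap, had 1 read in oil and 57 after estradiol, a ratio of 50 (95% counting interval 8.62 to 2009, which covers counting error only, as do the floors). Of 25 serine proteases and kallikreins, 7 rose and 3 fell (median -0.26). Klk1, tissue kallikrein, stood at 3.31 and 1.59 CPM in oil and 22.2 and 23.8 CPM after estradiol (3.20 ± 0.35), with reads that near-identical kallikrein genes may share. Tmprss11g, a membrane-bound serine protease, had no read in oil and 114 after estradiol, at least 33.3-fold higher. In the fits without estradiol library 1 and without estradiol library 2, 2 and 3 metalloproteinase and TIMP, 5 and 7 serpin and inhibitor and 4 and 5 serine protease genes rose, and 1 and 1 metalloproteinase and TIMP and 2 and 1 serine protease genes fell. With oil library 2 left out, 6 serine protease genes fell.

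Growth factor and morphogen genes that changed encode ligands, secreted binding partners, receptors, enzymes and targets. Of 18 insulin-like growth factor genes, 7 rose and 3 fell (median -0.15). Igfbp2, a carrier of insulin-like growth factors, stood at 1.26 and 2.83 CPM in oil and 43.4 and 25.5 CPM after estradiol, a log2 fold change of 4.08 ± 0.48. The carrier Igfbp5 stood at 69.4 and 85.5 CPM in oil and 146 and 202 CPM after estradiol, a log2 fold change of 1.17 ± 0.20. The receptor Igf1r stood at 497 and 605 CPM in oil and 134 and 156 CPM after estradiol, a log2 fold change of -1.93 ± 0.18. The ligand Igf1 rose (3.15 ± 0.26), so ligand and receptor moved in opposite directions with no overlap between treatments in either. Of 29 Wnt ligands, inhibitors and targets, 2 rose and 15 fell (median -0.89). Wnt5a, which signals mostly without beta-catenin, stood at 13.9 and 10.6 CPM in oil and 79.9 and 48.3 CPM after estradiol (2.38 ± 0.28). Wnt4, a mediator of stromal decidual change, stood at 50.2 and 34.5 CPM in oil and 17.0 and 14.9 CPM after estradiol (-1.41 ± 0.23), and its relative Wnt6 stood at 12 and 6.73 CPM in oil and 0.559 and 0.768 CPM after estradiol (-3.79 ± 0.51). Wnt5a lay higher after estradiol and the other 2 lower, with no overlap. Notum, a secreted Wnt inhibitor that is itself a Wnt target, had 91 reads in oil and 2 after estradiol, a ratio of 51.9 (95% counting interval 13.9 to 435). The Wnt target Axin2 did not pass (-0.27 ± 0.39, adjusted p = 0.634), and Lgr5, another, fell by 3.61 ± 0.54. Wnt7a, made by uterine epithelium, stood at 11.2 and 7.44 CPM in oil and 2.23 and 1.38 CPM after estradiol (-2.35 ± 0.58), a call that ended without estradiol library 1 (adjusted p = 0.0698), without estradiol library 2 (adjusted p = 0.103) and without oil library 1 (adjusted p = 0.0623). The hedgehog ligand Ihh, also of epithelium, fell by 4.13 ± 0.73, and Hhip, the hedgehog trap made by responding cells, rose by 3.03 ± 0.49. The responding gene Gli1 did not pass (-0.12 ± 0.15, adjusted p = 0.586). Retinoic acid genes moved at each step, 5 up and 3 down of 19 (median -0.07). Rdh10, which makes retinaldehyde, stood at 17.0 and 11.3 CPM in oil and 87.4 and 92.2 CPM after estradiol (2.66 ± 0.28), and Aldh1a2, which oxidizes it, at 18.8 and 14.3 CPM in oil and 185 and 105 CPM after estradiol (3.13 ± 0.38). The breakdown enzyme Cyp26b1 stood at 109 and 91.5 CPM in oil and 17.9 and 30.1 CPM after estradiol (-2.06 ± 0.33). Rdh10 and Aldh1a2 were thus higher and Cyp26b1 lower in each estradiol library, while Aldh1a3, another synthesis gene, had 179 reads in oil and 1 after estradiol, a ratio of 204 (95% counting interval 36.2 to 8105). Sulf2, which trims heparan sulfate and thereby alters growth factor binding, rose by 2.75 ± 0.22. Etv5, a target of FGF signalling, fell by 1.42 ± 0.26 and Id2, a target of BMP signalling, by 1.38 ± 0.18. Of 29 VEGF, angiopoietin and PDGF genes, 7 rose and 4 fell (median -0.09). Ramp3, a partner of the adrenomedullin receptor, rose by 1.5 ± 0.22 and Ramp2 by 1.32 ± 0.23, whereas the ligand Adm stood at 2816 and 683 CPM in oil and 124 and 232 CPM after estradiol (-3.29 ± 0.68), a call that ended without estradiol library 1 (adjusted p = 0.0742). After leaving out estradiol library 1 and then estradiol library 2, 4 and 5 insulin-like growth factor and 3 and 5 VEGF and PDGF genes rose, and 1 and 2 insulin-like growth factor, 5 and 8 Wnt and 1 and 3 VEGF and PDGF genes fell.

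Secreted defence proteins included several of the largest rises. Of 29 antimicrobial and uterine secretory genes, 11 rose and 5 fell (median 1.42). C3 (chromosome 17, 57203970 to 57228136, minus strand), the central complement protein, stood at 55.1 and 26.2 CPM in oil and 259.8 and 265 CPM after estradiol, a log2 fold change of 2.69 ± 0.32. Ltf, the iron-binding lactoferrin, stood at 20.7 and 3.36 CPM in oil and 99.6 and 188 CPM after estradiol, a log2 fold change of 3.56 ± 0.66. Wfdc18 had 1 read in oil and 400 after estradiol, a ratio of 351 (95% counting interval 62.6 to 13890). Both estradiol libraries lay above both oil libraries in these 3. Sprr2f, a cornified envelope protein of uterine epithelium, stood at 116 and 10.4 CPM in oil and 386 and 1462 CPM after estradiol and rose by 3.86 ± 1.07, a call that ended without estradiol library 2 (adjusted p = 0.139), and reads of the near-identical Sprr2 genes cannot be told apart with certainty. Aqp5 (-3.59 ± 0.56), Lyz1 (-4.87 ± 0.83, with reads that a near-identical lysozyme gene may share) and Wfdc15b (-2.30 ± 0.33), secretory genes of the same list, fell. Many of these genes are known from uterine epithelium, whose markers were lower in the estradiol libraries (given above), and the part of epithelial RNA in either direction was not tested.

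Of 23 complement genes, 4 rose and none fell, with a median of 0.01 that was below 0 when counts were scaled by relative log expression or by upper quartiles. Those that rose in each fit were C3, factor B (Cfb, 3.46 ± 0.46) and factor I (Cfi, 3.34 ± 0.70). Of 28 chemokine genes, 7 rose and 8 fell (median 0.49). Ccl28, which draws plasma cells to mucosa, stood at 1.74 and 0.531 CPM in oil and 19.1 and 12.8 CPM after estradiol (3.76 ± 0.49). Cxcl5, which draws neutrophils, stood at 6.94 and 3.36 CPM in oil and 26.3 and 44.7 CPM after estradiol (2.77 ± 0.38). Ccl8, which draws monocytes, stood at 3.79 and 0.531 CPM in oil and 21.9 and 14.9 CPM after estradiol (3.05 ± 0.57). Each of the 3 was low in oil, and lower there than in either estradiol library. Cxcl15, a chemokine of uterine glands, stood at 65.3 and 39.1 CPM in oil and 9.92 and 7.53 CPM after estradiol (-2.58 ± 0.31). The stromal chemokine Cxcl12 (-0.52 ± 0.24) and the neutrophil attractant Cxcl1 (0.49 ± 0.19) did not pass (adjusted p = 0.131 and 0.0746). Ccl20 had no read in oil and 43 after estradiol, at least 12.6-fold higher, though its call ended without estradiol library 1 (adjusted p = 0.108), without estradiol library 2 (adjusted p = 0.0809), without oil library 1 (adjusted p = 0.0625) and without oil library 2 (adjusted p = 0.0507). Of 26 peptide hormone and neuropeptide genes, 3 rose and 8 fell (median -1.15). Nppc, the natriuretic peptide known in the ovary as a brake on oocyte maturation, stood at 0.631 and 3.36 CPM in oil and 57.8 and 18 CPM after estradiol (4.27 ± 0.81), whose libraries after estradiol lay above those in oil. Metrn, a neurotrophic factor, stood at 9.94 and 11.7 CPM in oil and 47.6 and 86.1 CPM after estradiol (2.63 ± 0.31). Edn2, the constrictor peptide endothelin 2, stood at 23.7 and 15.4 CPM in oil and 1.96 and 0.922 CPM after estradiol (-3.73 ± 0.64). Metrn was higher and Edn2 lower in each estradiol library. Nmb, which encodes neuromedin B, fell by 1.55 ± 0.25. Among 25 cytokine genes 2 rose and 3 fell. Clcf1, of the interleukin 6 family, fell by 1.84 ± 0.21, and Mif, macrophage migration inhibitory factor, rose by 1.15 ± 0.19. Water and ion transport genes split as well, 4 up and 8 down of 28 (median -0.18). Car12, a carbonic anhydrase, stood at 10.1 and 7.97 CPM in oil and 123 and 149.8 CPM after estradiol (3.91 ± 0.24). Aqp8, a water channel, stood at 0.947 and 0.885 CPM in oil and 14.5 and 15.2 CPM after estradiol (3.99 ± 0.38). Cftr, a chloride channel, stood at 2.52 and 1.77 CPM in oil and 17.2 and 29.0 CPM after estradiol (3.41 ± 0.42). The 3 were over 5-fold higher in each estradiol library than in either oil library. Aqp11, another water channel, fell by 3.16 ± 0.44. Without estradiol library 1 and, in turn, without estradiol library 2, 10 and 6 antimicrobial and secretory and 3 and 7 chemokine genes rose, and 3 and 4 antimicrobial and secretory, 2 and 3 chemokine, 4 and 3 peptide hormone, 2 and 3 transport and 1 and 2 cytokine genes fell. Without oil library 1, 4 complement and 5 transport genes fell. Without oil library 2, 8 transport genes rose.

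Transcription factor genes fell far more often than they rose. Over 14 families and 453 tested genes, 134 fell (29.6%) and 39 rose (8.61%), with a median of -0.40, beside 14.0%, 15.8% and 0.01 for all tested genes. Without the genes of the dissociation list, 129 of 442 fell and 39 rose. The numbers that fell were 44 without estradiol library 1, 58 without estradiol library 2, 115 without oil library 1 and 128 without oil library 2. The numbers that rose were 13, 21, 29 and 45. In 13 of the 14 families more members fell than rose, the exception being the E2F family. That order did not hold in each family when a library was left out. Without estradiol library 1 or 2 it was lost for HOX genes (medians -0.42 and -0.30) and forkhead genes (medians -0.34 and -0.60), among others. The summed level of the dissociation list, which moves with these genes, was given above, and its part in the falls was not tested.

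**Figure D3:**
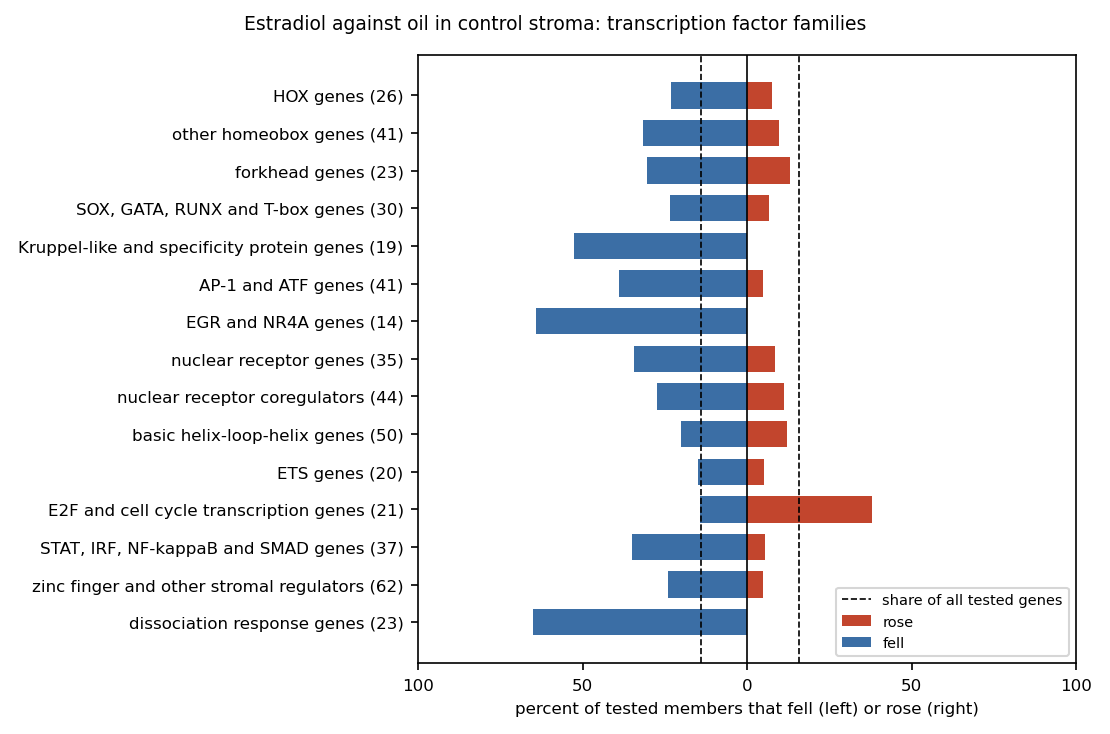
Percent of tested members of each transcription factor family, and of the dissociation response list, that fell (blue, left) or rose (red, right), with dashed lines at the shares of all tested genes, 14.0% and 15.8%. Only the E2F family reaches further right than left; no Kruppel-like, EGR or NR4A gene rose.

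Factors of the early response led the falls. Of 14 EGR and NR4A genes, which are switched on within minutes of a stimulus, 9 fell and none rose (median -1.16). Egr4 stood at 77.8 and 55.2 CPM in oil and 13.8 and 13.5 CPM after estradiol, a log2 fold change of -2.28 ± 0.27, and Nr4a3 at 264 and 177 CPM in oil and 75.6 and 81.3 CPM after estradiol, a log2 fold change of -1.49 ± 0.21. Egr1 (-0.51 ± 0.26) and Nr4a1 (-0.96 ± 0.36) did not pass (adjusted p = 0.170 and 0.0754). Of 41 AP-1 and ATF genes, 16 fell and 2 rose (median -0.47). Fosl1, an AP-1 subunit, stood at 341 and 158 CPM in oil and 14.7 and 22.4 CPM after estradiol, a log2 fold change of -3.75 ± 0.45. Jund stood at 2168 and 2037 CPM in oil and 774 and 848 CPM after estradiol (-1.37 ± 0.19). Fos itself (-0.18 ± 0.55) and Fosb (-0.42 ± 0.38) did not pass (adjusted p = 0.825 and 0.423). Of 19 Kruppel-like and specificity protein genes, 10 fell and none rose (median -0.73), with Klf2, a factor of quiet endothelium and lymphocytes, at -1.33 ± 0.17 and Sp4 at -1.73 ± 0.27. Of 37 STAT, IRF, NF-kappaB and SMAD genes, 13 fell and 2 rose (median -0.52), and Rela, the p65 subunit of NF-kappaB, stood at 965 and 923 CPM in oil and 444 and 428 CPM after estradiol (-1.12 ± 0.17). With estradiol library 1, then estradiol library 2, left out, 0 and 0 STAT, IRF, NF-kappaB and SMAD genes rose, and 6 and 5 EGR and NR4A, 7 and 7 AP-1 and ATF, 3 and 5 Kruppel-like and 3 and 5 STAT, IRF, NF-kappaB and SMAD genes fell. With oil library 1 left out, 4 AP-1 and ATF genes rose. With oil library 2 left out, 4 AP-1 and ATF genes rose.

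Clock genes fell as a group: of 19 circadian clock genes, 14 fell and none rose (median -1.02). The clock runs on BMAL1 and CLOCK, which drive their own repressors of the PER, CRY and REV-ERB families. Cry2 (chromosome 2, 92403646 to 92434043, minus strand) stood at 346 and 399.7 CPM in oil and 117 and 119.9 CPM after estradiol, a log2 fold change of -1.65 ± 0.23 (adjusted p = 0.00182). The output factor Hlf stood at 41.8 and 37.7 CPM in oil and 15.4 and 11.8 CPM after estradiol, a log2 fold change of -1.54 ± 0.23. Rora, an activator of the loop, stood at 100.02 and 109.05 CPM in oil and 47.4 and 53.8 CPM after estradiol, a log2 fold change of -1.05 ± 0.17. None of these overlapped between treatments. The drivers Arntl, which encodes BMAL1 (-0.04 ± 0.39), and Clock (-0.12 ± 0.20) did not pass (adjusted p = 0.943 and 0.669). Per1 and Per2 fell by 0.87 ± 0.21 and 0.87 ± 0.20, calls that ended without estradiol library 1 (adjusted p = 0.112) and without estradiol library 2 (adjusted p = 0.0580) for Per1 and without estradiol library 1 (adjusted p = 0.0565) and without estradiol library 2 (adjusted p = 0.0873) for Per2. The hour at which tissue was taken is not given in the labels. The E-box CACGTG, to which the clock drivers bind, was in 5 of 16 (31.2%) of the list's promoter windows and in 8.42% of all tested genes. In the fits without estradiol library 1 and without estradiol library 2, 5 and 8 clock genes fell.

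Developmental and hormone-linked factors were mixed. Of 26 HOX genes, 2 rose and 6 fell (median -0.27). Hoxa11, needed for the uterus to form and to implant an embryo, stood at 52.2 and 81.1 CPM in oil and 165 and 182 CPM after estradiol (1.38 ± 0.26). Hoxd4 stood at 162 and 179 CPM in oil and 63.8 and 74.8 CPM after estradiol (-1.30 ± 0.20). Hoxa10 rose by 1.40 ± 0.36, a call that ended without estradiol library 1 (adjusted p = 0.144) and without oil library 1 (adjusted p = 0.0651). Both HOXA genes pattern the uterus and both were higher in each estradiol library. Of 41 other homeobox genes, 4 rose and 13 fell (median -0.26): the mesenchymal factors Prrx1 (1.38 ± 0.23) and Prrx2 (1.85 ± 0.36) rose. Of 23 forkhead genes, 3 rose and 7 fell (median -0.47), with Foxf1 of visceral mesenchyme at -1.47 ± 0.23. Of 30 genes listed as SOX, GATA, RUNX and T-box genes, 2 rose and 7 fell (median -0.63), with Sox9, a factor of glands, at -2.43 ± 0.39. Osr1, which is of none of these families, rose by 1.51 ± 0.28. Of 50 basic helix-loop-helix genes, 6 rose and 10 fell (median -0.30). Mitf, a factor that drives lysosome and pigment genes, stood at 111 and 93.3 CPM in oil and 14.7 and 14.6 CPM after estradiol (-2.80 ± 0.20). Mycl, of the MYC family, stood at 56.6 and 30.3 CPM in oil and 6.01 and 6.45 CPM after estradiol (-2.80 ± 0.43). Both were lower in each estradiol library. Of 35 nuclear receptor genes, 3 rose and 12 fell (median -0.36), and Nr1h4, the bile acid receptor, fell by 2.95 ± 0.52. Among 44 nuclear receptor coregulators, 5 rose and 12 fell (median -0.24). Prmt1, an arginine methyltransferase, stood at 190.3 and 172 CPM in oil and 458 and 497 CPM after estradiol (1.40 ± 0.17). Cited4, a binding partner of p300, stood at 123 and 98.4 CPM in oil and 42.6 and 45.8 CPM after estradiol (-1.32 ± 0.23). Of 62 zinc finger and other stromal regulators, 3 rose and 15 fell (median -0.46), among them Tcf7l2, a nuclear partner of beta-catenin (-1.06 ± 0.17). Of 20 ETS genes, 1 rose and 3 fell (median -0.15). After leaving out estradiol library 1 and then estradiol library 2, 1 and 1 helix-loop-helix, 0 and 1 nuclear receptor, 1 and 3 coregulator and 0 and 3 zinc finger genes rose, and 1 and 1 HOX, 1 and 4 homeobox, 1 and 2 forkhead, 2 and 1 SOX, GATA, RUNX and T-box, 5 and 5 helix-loop-helix, 5 and 8 nuclear receptor, 4 and 3 coregulator and 3 and 10 zinc finger genes fell. Without oil library 1, 2 helix-loop-helix and 1 nuclear receptor genes rose, and 6 coregulator genes fell. Without oil library 2, 5 SOX, GATA, RUNX and T-box, 3 coregulator and 5 zinc finger genes rose.

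Markers of stroma and smooth muscle were higher after estradiol, and markers of epithelium and of lymphatic vessels lower. Of 20 uterine stroma markers, 10 rose and 2 fell (median 0.83). Pdgfra (0.72 ± 0.31), Hand2 (0.62 ± 0.33), Nr2f2 (0.20 ± 0.16), Emx2 (0.37 ± 0.23) and the intermediate filament gene Vim (0.86 ± 0.36) did not pass. Of 20 luminal epithelium markers, 1 rose and 8 fell (median -0.81). The luminal median was -0.51 without estradiol library 1, -1.12 without estradiol library 2, -0.011 without oil library 1 and -1.35 without oil library 2. Fewer luminal markers fell in each of these fits but the last. Of 10 glandular epithelium markers, 1 rose and 5 fell (median -0.66), with the summed level at 1158 and 749.7 CPM in oil and 380.1 and 336 CPM after estradiol. Smooth muscle markers rose in 8 of 16 and fell in none (median 1.22). Actg2, the enteric smooth muscle actin, stood at 9.31 and 44.1 CPM in oil and 264 and 287 CPM after estradiol, a log2 fold change of 3.37 ± 0.58. Acta2, smooth muscle alpha actin, stood at 661 and 1750.0 CPM in oil and 3339.7 and 3785 CPM after estradiol, and rose by 1.56 ± 0.42, a call that ended without estradiol library 1 (adjusted p = 0.0763) and without estradiol library 2 (adjusted p = 0.0917). Oil library 1 had the lowest level of both. Myh11, the heavy chain that defines mature smooth muscle, did not pass (0.88 ± 0.37, adjusted p = 0.103).

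Of 18 blood endothelium markers, 4 rose and 3 fell, with a median of 0.03. Cldn5, the tight junction claudin of endothelium, stood at 136 and 243 CPM in oil and 42.3 and 52.7 CPM after estradiol (-1.99 ± 0.27). Vwf, von Willebrand factor, stood at 18.6 and 36.6 CPM in oil and 3.35 and 6.92 CPM after estradiol (-2.43 ± 0.41). Cd34 stood at 540.2 and 631 CPM in oil and 1736 and 1447 CPM after estradiol (1.44 ± 0.23). The endothelial genes Kdr (0.07 ± 0.23) and Cdh5 (0.33 ± 0.27) did not pass (adjusted p = 0.847 and 0.384). Vessel markers thus did not move one way. All 8 tested lymphatic endothelium markers were lower in each estradiol library than in each oil library, against 31.7% of all tested genes, and 5 of them fell (median -1.47). The summed level of that list was 489 and 509 CPM in oil and 209 and 181 CPM after estradiol. Reln stood at 59.6 and 54.5 CPM in oil and 13.7 and 15.7 CPM after estradiol (-1.96 ± 0.28), and the fall of the hyaluronan receptor Lyve1 (-1.72 ± 0.37) ended without estradiol library 2 (adjusted p = 0.0746).

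Leucocyte markers were low throughout. Macrophage markers summed to 183 and 156 CPM in oil and 233 and 202 CPM after estradiol, and 3 of 12 rose and 1 fell. Dendritic cell markers summed to 269 and 195 CPM in oil and 205 and 145 CPM after estradiol, and 1 of 8 fell. B cell markers summed to 84.1 and 38.6 CPM in oil and 66.9 and 28.0 CPM after estradiol, with 1 member tested and not called. Mast cell markers summed to 32.5 and 30.6 CPM in oil and 28.8 and 27.4 CPM after estradiol with no call among 5. T cell markers summed to 9.94 and 8.50 CPM in oil and 5.17 and 5.53 CPM after estradiol, NK cell markers to 6.47 and 5.84 CPM in oil and 4.61 and 3.38 CPM after estradiol and eosinophil markers to 3.0 and 3.36 CPM in oil and 2.10 and 3.23 CPM after estradiol. Of each of these lists at most 2 members had enough reads to be tested, and none was called. Neutrophil markers summed to 26.0 and 15.4 CPM in oil and 127 and 194 CPM after estradiol. Most of the sum in each estradiol library was Ltf, a gene that uterine epithelium also makes, with its levels given above. In oil library 2 most of the sum was not Ltf. Of the tested neutrophil markers Ltf alone passed. Erythroid markers summed to 163 and 199 CPM in oil and 496 and 276 CPM after estradiol, and 4 of 5 rose. Without estradiol library 1 and, in turn, without estradiol library 2, 4 and 8 stroma, 4 and 3 smooth muscle, 2 and 2 blood endothelium, 1 and 1 macrophage and 0 and 4 erythroid markers rose, and 0 and 0 stroma, 4 and 2 glandular and 4 and 1 lymphatic markers fell. With oil library 1 left out, 1 erythroid marker rose, and 3 glandular, 2 smooth muscle and 5 blood endothelium markers fell. With oil library 2 left out, 7 blood endothelium markers rose.

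**Figure D4:**
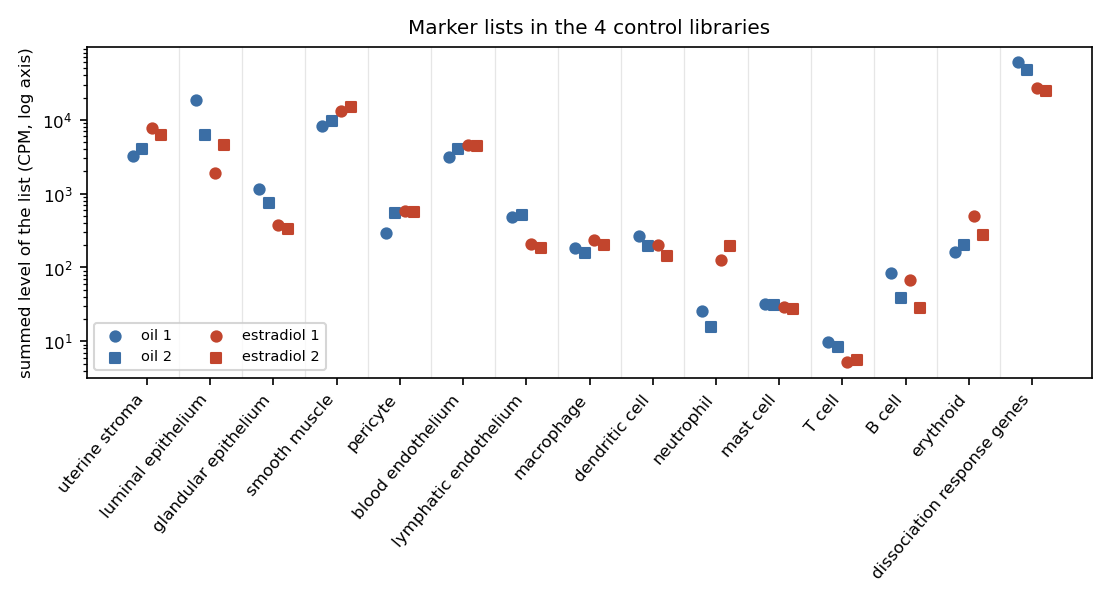
Summed level in CPM (log axis) of each marker list in the 4 control libraries, blue for oil and red for estradiol, circles for library 1 and squares for library 2. Luminal epithelium markers are highest in oil library 1, lymphatic endothelium markers are lower in both estradiol libraries (209 and 181 CPM) than in both oil libraries, and T cell markers are under 10 CPM in each.

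Genes that no list held were among the largest changes. Gfra1, the receptor for the growth factor GDNF, stood at 2.37 and 1.77 CPM in oil and 102 and 33.2 CPM after estradiol, a log2 fold change of 5.01 ± 0.72. Hp, which encodes haptoglobin, a plasma protein that binds free haemoglobin, stood at 3.31 and 0.885 CPM in oil and 55.7 and 49.9 CPM after estradiol, a log2 fold change of 4.61 ± 0.60. Dscam, an adhesion molecule of neurons, stood at 0.316 and 1.24 CPM in oil and 33.5 and 12 CPM after estradiol, a log2 fold change of 4.88 ± 0.71. Aoc1, the enzyme that breaks down histamine, was unequal between the estradiol libraries, at 3.16 and 0 CPM in oil and 33.8 and 97.1 CPM after estradiol (5.30 ± 0.86). The adenylyl cyclase gene Adcy1 rose by 5.11 ± 0.69. Chst13, a chondroitin sulfotransferase, had 1 read in oil and 185 after estradiol, a ratio of 162 (95% counting interval 28.8 to 6444). Scgb1c1, a secretoglobin, had 1 read in oil and 172 after estradiol, a ratio of 151 (95% counting interval 26.7 to 5993). All of these lay higher in each estradiol library. Among the falls, Car4, a membrane carbonic anhydrase, had 127 reads in oil and none after estradiol, at least 48.3-fold lower, in contrast to Car12. Ano2, a calcium-gated chloride channel, had 151 reads in oil and none after estradiol, at least 57.4-fold lower. Grin2b, a glutamate receptor subunit, stood at 41.8 and 23.5 CPM in oil and 1.54 and 0.615 CPM after estradiol, a log2 fold change of -4.88 ± 0.68. The methyltransferase gene Inmt fell by 5.30 ± 0.61, the transporter Slc16a11 by 4.98 ± 0.62 and the keratin Krt4, of stratified epithelium, by 4.54 ± 0.66. Oil library 1 held more Krt4 (38.8 CPM) than oil library 2 (13.1 CPM), as for the luminal markers.

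The same comparison in Atg7-deleted stroma shares no library with the control comparison, though both use 1 estimate of spread. There 1746 genes rose and 1496 fell (24.3% of those tested). Without 1 of the deleted libraries, estradiol 1, estradiol 2, oil 1 and oil 2 in that order, 511, 652, 684 and 817 rose and 229, 413, 605 and 817 fell. Of the 2107 genes that rose in control stroma, 2100 were higher in deleted stroma and 1459 passed there (69.2%, which is 83.6% of the genes that rose in deleted stroma). Of the 1871 that fell, 1858 were lower and 1240 passed (66.3%, and 82.9% of the genes that fell in deleted stroma). The median log2 fold change of the genes that rose was 1.21 in control and 1.03 in deleted stroma, and of those that fell -1.21 and -1.05. The genes were chosen by their control values, so these medians are a description. A test of the difference between the 2 effects called no gene (0 of 13347 by edgeR and by DESeq2, 210 or 1.57% at an unadjusted p under 0.05), so no gene is called particular to control stroma. The medians in control and deleted stroma were 1.23 and 1.1 for cholesterol synthesis, 1.23 and 1.25 for collagen processing, -1.02 and -1.17 for the clock, and 2.76 and 1.58 for the mitotic list. The 5 smallest p-values of the difference belonged to Actc1 (0.000798 unadjusted), Paox (0.000895), Cdk1 (0.00103), Ube2c (0.00122) and Knstrn (0.00153), all with an adjusted p of 0.99995 by edgeR. The mitotic genes among them had smaller values in deleted stroma, with Cdk1 at 2.39 ± 0.24 there and 3.97 ± 0.26 in control stroma, a difference that did not pass. Paox, a polyamine oxidase, rose by 2.31 ± 0.34 in control stroma and stood at 0.022 in deleted stroma. Atg7 itself had 22 and 32 reads in control oil and 20 and 23 after estradiol (-0.52 ± 0.43, adjusted p = 0.384). The deleted libraries had 21 and 33 Atg7 reads in oil and 23 and 22 after estradiol, a count of 3′ ends that does not check the deletion unless the deleted part holds that end. Amhr2, whose promoter drives the recombinase, had 20 and 13 against 2 and 8 (-1.86 ± 0.96, adjusted p = 0.171).

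**Figure D5:**
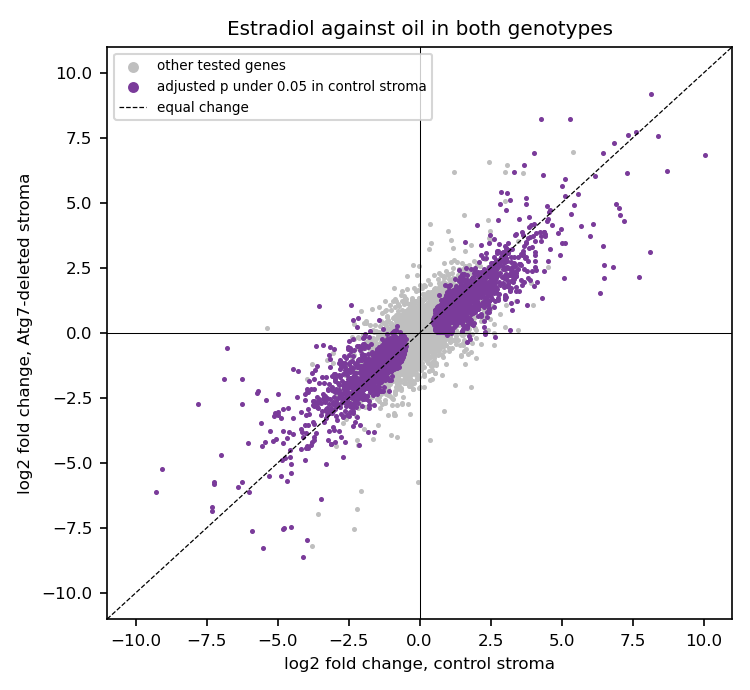
Log2 fold change of estradiol against oil in control stroma (horizontal) and in Atg7-deleted stroma (vertical) for 13347 tested genes; purple points passed in control stroma and the dashed line marks equal change. Purple points lie in the lower left and upper right, except for 20 genes of opposite sign.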

How the data were processed

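RNA was measured in 8 libraries of mouse uterine stroma, 2 in each of 4 groups, by 3′ end sequencing. The authors deposited raw read counts per gene symbol, 1 file per library; per the submitters' processing notes, Bowtie2, edgeR and mm10 were used, with the counting tool, the annotation and the use of strand not given in the sources used here, so overlapping and antisense genes cannot be told apart. Where 1 symbol had several lines (35 symbols), only its most abundant line was used, leaving out 0.0973% of counts.

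The counts were fitted with edgeR 4.0.16 in R 4.3.3 (limma 3.58.1): filterByExpr kept 13347 genes (99.9% of counts), library sizes were scaled by trimmed mean of M-values (factors 0.918 to 1.03), and a quasi-likelihood fit with 1 mean per group over all 8 libraries was tested for estradiol against oil, adjusted over all tested genes by Benjamini-Hochberg. The biological coefficient of variation was 21.8%, with 4 residual degrees of freedom. The test was also run on simulated counts, with the same spread for all genes and far fewer changed genes than were called here. That run does not cover replicate libraries as unequal as the oil libraries.

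The genes and lists were chosen with earlier results of these data known. Named genes follow a rule: per list up to 6 with the smallest adjusted p and 3 with the highest level, or any in lists of 12 or fewer, and beyond lists the 20 largest rises and 20 largest falls. Mcm7, Rrm1, Rrm2, Ccnb1, Kif20a, Mad2l1, Ppargc1a, Col6a5, Col6a6, Eln, Mmp2, Mmp14, Ccl20, Clock, Arntl, Per2, Pdgfra, Hand2, Emx2, Myh11 and Kdr lie outside it and were chosen after their values were seen. DESeq2 1.42.0, other scalings, filters, libraries left out and a replicate block were alternatives. Gene coordinates are from GENCODE M21 (mm10).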

Additional observations from a re-analysis of the deposited data

How the results depend on the processing

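In control stroma 2107 genes rose and 1871 fell. Counts within 1.5 times of these came from DESeq2, other scalings, other filters, the sum of lines per symbol and the fits without a deleted library. With only the 4 control libraries 1232 rose and 1073 fell, and against a 1.5-fold change 930 and 711, with fewer residual degrees of freedom in the first and a stricter null in the second. Leaving out 1 of the 8 libraries gave 986 to 2125 that rose and 519 to 2043 that fell. In deleted stroma the ranges were 511 to 2324 and 229 to 2021, and 662 and 518 against a 1.5-fold change. The difference between genotypes called 0 genes in each alternative, and the cause of the moves with single libraries was not tested. Of 223 genes named, 194 passed and 176 of these passed in all 4 fits without a control library. Genes under the threshold whose log2 fold change turned sign when 1 library was left out lay between -0.31 and 0.11 for Ccnd1, -0.71 and 0.19 for Axin2, -0.96 and 0.83 for Fos, -0.86 and 0.17 for Fosb, -0.27 and 0.040 for Clock, -0.56 and 0.34 for Arntl, -0.22 and 0.44 for Kdr; Arntl stood at 0.025 with library totals alone. Medians of lists that turned sign when 1 library was left out lay between -0.082 and 0.14 for cytosolic ribosomal protein genes, -0.30 and 0.069 for lipoprotein uptake and lipid storage genes, -0.33 and 0.51 for p53 target genes, -0.35 and 0.47 for insulin-like growth factor genes, -0.32 and 0.34 for VEGF, angiopoietin and PDGF genes, -0.26 and 0.046 for complement genes, -0.48 and 0.11 for serine proteases and kallikreins, -0.15 and 0.40 for small leucine-rich proteoglycans, -0.26 and 0.085 for ETS genes, -0.27 and 0.39 for blood endothelium markers. Medians also turned sign with DESeq2 -0.0045 for cytosolic ribosomal protein genes and -0.016 for complement genes, with relative log expression -0.0044 for cytosolic ribosomal protein genes and -0.016 for complement genes, with upper quartiles -0.011 for cytosolic ribosomal protein genes and -0.0045 for lipoprotein uptake and lipid storage genes and -0.023 for complement genes, with a filter at 10 CPM in 2 libraries -0.0031 for cytosolic ribosomal protein genes and -0.049 for lipoprotein uptake and lipid storage genes, with only the 4 control libraries -0.0020 for complement genes.

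Replicate numbers did not pair control estradiol with control oil libraries, as deviations of same-numbered libraries correlated at -0.23. Over the other pairs of groups the correlation lay between -0.17 and 0.49. It was 0.49 between the oil libraries of the genotypes and 0.23 between their estradiol libraries, so same-numbered libraries of a treatment shared some deviation. With a replicate block 2165 genes rose and 1929 fell in control stroma, 1818 and 1605 in deleted stroma, and no call of a gene named ended, while Rrm1, Mmp14, Pdgfra and Myh11 passed (edgeR adjusted p = 0.0471, 0.0440, 0.0374 and 0.0417). With the numbers crossed, an alternative chosen after seeing the data, 2641 rose and 2305 fell in control stroma. Genes with few reads are limited by depth, and 2 libraries a group limit every comparison.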

Other observations

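Further lists not described above are given here, beside the 29.8% of all tested genes that rose or fell. Of 40 guidance cue genes, 4 rose and 9 fell. Sema3a, a repellent of growing axons and vessels, stood at 9.62 and 25.7 CPM in oil and 69.0 and 66.4 CPM after estradiol, a log2 fold change of 1.95 ± 0.38. Plxnb1, a semaphorin receptor, stood at 72.3 and 53.8 CPM in oil and 17.6 and 17.5 CPM after estradiol, a log2 fold change of -1.84 ± 0.31. The libraries of the treatments did not overlap for either, and the ephrin receptor Epha7 fell by 1.45 ± 0.26. Of 20 MAP kinase feedback genes, 1 rose and 5 fell. Errfi1, an inhibitor of the EGF receptor, stood at 1838 and 1039 CPM in oil and 416 and 419.7 CPM after estradiol, a log2 fold change of -1.78 ± 0.29, and the phosphatase Dusp8 fell by 1.46 ± 0.18. Of 21 prostaglandin and eicosanoid genes, 3 rose and 2 fell, with the phospholipase Pla2g5 at 13.7 and 11 CPM in oil and 0.419 and 1.08 CPM after estradiol (-4.03 ± 0.49). Of 17 cadherins and gap junctions, 3 rose and 3 fell, and Cdh16, a cadherin of epithelium, fell by 3.80 ± 0.54, beside the lower epithelial markers given above, whose part was not tested. Of 24 TGF-beta and activin genes, 4 rose and 3 fell, and Tgfbi, a matrix protein induced by TGF-beta, fell by 3.59 ± 0.46. Of 24 G protein-coupled receptors of stroma and hormones, 3 rose and 4 fell, and Lpar1, a receptor for lysophosphatidic acid, rose by 1.64 ± 0.27. With estradiol library 1, then estradiol library 2, left out, 2 and 2 guidance, 0 and 1 prostaglandin, 1 and 2 cadherin and gap junction, 0 and 2 TGF-beta and 1 and 2 receptor genes rose, and 2 and 4 guidance, 2 and 4 MAP kinase feedback, 1 and 1 cadherin and gap junction and 1 and 1 receptor genes fell. Leaving out oil library 2, 6 cadherin and gap junction genes rose, and 8 MAP kinase feedback genes fell.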
